A study of Mus musculus with 10 samples.

Results

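Bone morphogenetic protein (BMP) signalling genes were followed across the posterior wall of the mouse eye. The set holds 10 genes chosen by name, of 26360 listed: the ligand genes Bmp2, Bmp3, Bmp4, Bmp6 and Bmp7, the receptor genes Bmpr1a and Bmpr2, and the antagonist genes Grem1, Nog and Chrdl1. All 10 were found among the listed genes. Their levels came from RNA sequencing of total RNA in 10 libraries, taken from right eyes (n = 5) and left eyes (n = 5) of the same 5 wild-type C57BL/6J mice, numbered 61, 64, 65, 66 and 68, at postnatal day 34. The labels call the tissue RPE (the retinal pigment epithelium) with choroid and sclera, while their extraction protocol speaks of retinae. Every mouse had carried a -20 D lens in a goggle over 1 eye, fitted under ketamine and xylazine at postnatal day 24 and kept for 10 days, and the fellow eye had no lens. A lens of this kind makes the eye grow too long and become myopic. The labels name the side of each eye but not the side of the lens, so the groups compared are right eye and left eye, and the sign of a difference carries no meaning for the lens.

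BMPs are secreted dimers of the TGF-beta superfamily. They bind a complex of type I and type II serine/threonine kinase receptors, which phosphorylates SMAD1, SMAD5 and SMAD9, and these move with SMAD4 to the nucleus, where they induce genes such as those of the Id family. Secreted antagonists such as noggin, gremlin and the chordin-like proteins bind the ligands and keep them from the receptors. In the chick, transcripts of BMP2, BMP4 and BMP7 in the RPE are known to change with the sign of a lens worn over the eye.

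The upstream promoter sequences are shown for the ligand with the highest level per exon length, Bmp4, and for the gene with the lowest, Grem1, which mark the ends of the range among the secreted members described below. RefSeq promoter entries (GRCm38.p6) were matched for 5 of the 10 genes. Each sequence is the 250 bases before the annotated start, read 5′ to 3′ along the minus strand on which both genes lie. The Bmp4 window is chr14:46390670-46390919 and its start equals the deposited gene start (distance 0 bases), and the Grem1 window is chr2:113758649-113758898 with a start 2 bases away. Capitals mark GGGCGG (the GC box), GGCGCC (a GC-rich element known from the Id1 promoter) and CACGTG (an E box), searched on both strands, and the marked motifs do not overlap each other in these windows.
Bmp4: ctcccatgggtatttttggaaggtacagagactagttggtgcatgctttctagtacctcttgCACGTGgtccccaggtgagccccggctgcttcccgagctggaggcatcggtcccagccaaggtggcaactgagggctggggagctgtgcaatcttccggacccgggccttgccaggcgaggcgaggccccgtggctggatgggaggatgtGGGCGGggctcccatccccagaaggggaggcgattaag
Grem1: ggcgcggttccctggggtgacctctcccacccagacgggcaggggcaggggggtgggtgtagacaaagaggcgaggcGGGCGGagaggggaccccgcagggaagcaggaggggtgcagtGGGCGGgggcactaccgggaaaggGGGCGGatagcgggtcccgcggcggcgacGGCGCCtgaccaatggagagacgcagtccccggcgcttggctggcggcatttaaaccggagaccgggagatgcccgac
The Bmp4 window held 1 GGGCGG, 1 CACGTG and 0 GGCGCC, and the Grem1 window held 3 GGGCGG, 1 GGCGCC and 0 CACGTG. Neither held TATAAA, the TATA box. Of 32851 RefSeq promoter windows of the same length, 32.7% held GGGCGG, 9.59% held GGCGCC, 6.02% held CACGTG and 12.4% held TATAAA. The Bmp4 window had 11 CG dinucleotides and the Grem1 window 24, against a median of 6 over all windows. Both windows are thus richer in CG than most, although the levels of the 2 genes lie far apart.

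Levels are in CPM, the reads of a gene scaled to a common library total. Library totals implied by the steps between low values were 66.9 to 94.2 M reads, and the listed genes took 42.7% to 47.1% of each total. At these depths 3 reads correspond to 0.0318 to 0.0448 CPM. Every member was above 0 in every library, with 29 to 104 implied reads for Grem1, 237 to 336 for Nog and at least 258 for each of the others. Markers of the labelled tissue were abundant: the summed level of 6 scleral fibroblast genes (Col1a1, Col1a2, Dcn, Lum, Fmod and Ogn) was 6241 to 8619 CPM in right and 5943 to 8405 CPM in left eyes, and that of 6 RPE genes 4809 to 6415 CPM in right and 4629 to 5223 CPM in left eyes. Among the RPE genes Best1, a chloride channel of that layer, stood at only 0.255 to 0.762 CPM. RNA of neighbouring tissues was present too, with 5 rod genes summing to 106 to 1568 CPM in right and 175 to 747 CPM in left eyes. The right eye of animal 68 stood apart with the 1568 CPM of rod genes, the next library having 747 CPM. Other lists, of 5 genes each, summed to 3267 to 4378 CPM in right and 3647 to 4257 CPM in left eyes for pigment cells, to 670 to 832 CPM in right and 734 to 764 CPM in left eyes for smooth muscle and pericytes, and to 118 to 142 CPM in right and 118 to 211 CPM in left eyes for Schwann cells. Lens genes summed to 80.0 to 642 CPM in right and 66.5 to 259 CPM in left eyes, skeletal muscle genes to 370 to 1021 CPM in right and 400 to 2293 CPM in left eyes, and inner retina genes to 25.3 to 92.2 CPM in right and 32.9 to 56.3 CPM in left eyes. Rbpms made up most of the low inner retina sums and was itself lowest (18.2 CPM) in the right eye of animal 68, where the neuronal genes Snap25 (54.0 CPM) and Gad1 (8.15 CPM) were highest. Adipocyte genes, 4 of 5 listed and each at 0 in at least 1 library, stayed at or under 0.817 CPM in right and 0.568 CPM in left eyes. In bulk tissue, fewer cells of a type and less RNA per cell cannot be told apart.

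Per kilobase of exon, both receptors and Bmp4 formed the upper group of the set, the other common ligands followed, and Bmp3 and Grem1 were lowest. Bmpr1a, a type I receptor for BMP ligands, averaged 14.3 ± 1.10 CPM per kb (SD over 10 libraries, here and below), and Bmpr2, the type II receptor, 13.5 ± 0.989 CPM per kb. These neighbours did not separate, Bmpr1a being higher than Bmpr2 in 6 of 10 libraries. Bmp4 followed at 11.3 ± 2.09 CPM per kb, and Bmpr2 was above it in 8 of 10 libraries. A gap then followed, since the lowest Bmp4 library (7.59 CPM per kb) lay above the highest Bmp7 library (5.95 CPM per kb).

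Bmp7, Bmp6 and Bmp2 were close together at 4.89 ± 0.792, 4.36 ± 0.754 and 3.78 ± 0.597 CPM per kb, and each was above the next in 7 of 10 libraries for Bmp7 over Bmp6 and in 7 of 10 for Bmp6 over Bmp2. Chrdl1 (2.39 ± 0.262 CPM per kb) was below Bmp2 in 10 of 10 libraries and above Nog (2.08 ± 0.278 CPM per kb) in 9 of 10. Bmp3, at 0.874 ± 0.280 CPM per kb, lay below every Nog library. Grem1 was the lowest at 0.148 ± 0.0578 CPM per kb, and its highest library (0.299 CPM per kb) was below the lowest of Bmp3 (0.398 CPM per kb). The exon lengths are unions over all GENCODE M21 transcripts of a gene, 17.98 kb for Bmpr2 and 2.25 kb for Bmp4, so a gene whose longest exons are not used in this tissue is understated.

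**Figure D1:**
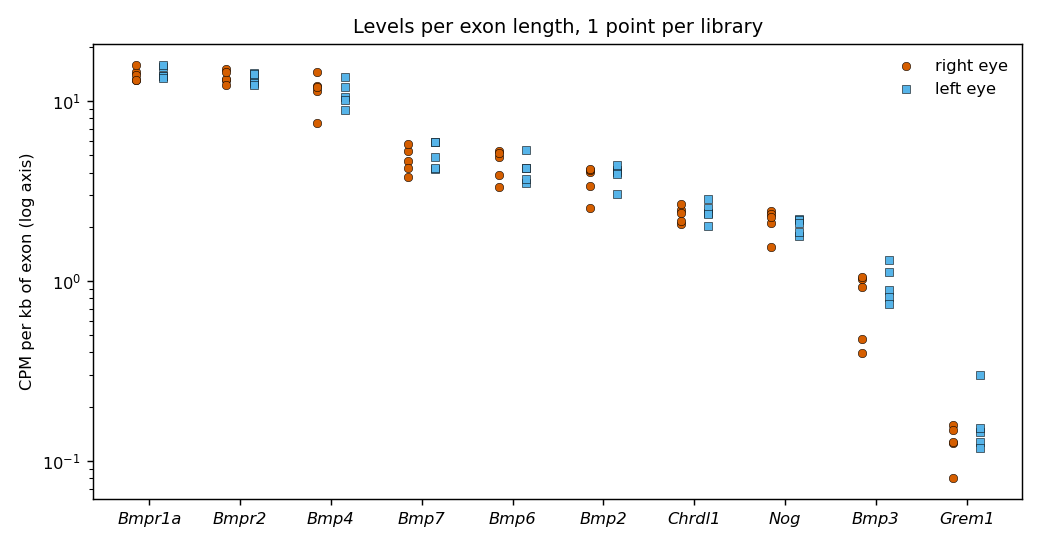
Level per kilobase of exon (CPM per kb, log axis) of the 10 BMP genes, in falling order of the mean, with 1 point per library (circles, right eye, n = 5; squares, left eye, n = 5). Bmpr1a, Bmpr2 and Bmp4 share the top of the range, and Grem1 lies below all other genes in every library.

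Summed per kilobase, the 5 ligands reached 18.3 to 28.0 CPM per kb (median 26.4), both receptors 25.5 to 29.8 CPM per kb (median 28.0) and the 3 antagonists 3.83 to 5.02 CPM per kb (median 4.79). In each library the ligand sum was thus several times the sum of these antagonists. This holds for these 3 genes only, since antagonists outside the set were left out of the sum. Some of those had higher levels per kb, as given below. Both eyes of animal 68 had the lowest ligand sums, 18.3 CPM per kb in the right and 20.6 CPM per kb in the left eye, while the 8 other libraries lay between 24.3 and 28.0 CPM per kb.

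Bmp4, a ligand of the BMP2/4 subgroup that patterns the dorsal eye in development (chromosome 14, 46383520 to 46390669, minus strand, GRCm38), stood at 27.4, 25.6, 27.1, 32.8 and 17.1 CPM in the right eyes of animals 61, 64, 65, 66 and 68, and at 23.6, 30.4, 22.8, 27.1 and 19.9 CPM in their left eyes. Animal 68 held its lowest and its next lowest library. Bmp2, its closest relative (chromosome 2, 133552159 to 133562885, plus strand), stood at 14.4, 14.7, 14.8, 11.9 and 9.05 CPM in the right eyes and at 14.7, 14.3, 13.9, 15.8 and 10.9 CPM in the left eyes of the same animals in that order. Again both eyes of animal 68 were the lowest, and the remaining 8 libraries spanned only 11.9 to 15.8 CPM. Over all 15414 genes tested, those averaging 1 CPM or more, both lowest libraries were those of animal 68 in 5.66%, and for the other animals this share was 1.49% to 3.15%. The right eye of animal 68 was the lowest library for 5 of the 10 members (Bmp2, Bmp4, Bmp6, Bmp7 and Nog), and it was the lowest for 19.0% of all tested genes. The same library had the highest rod sum (1568 CPM) and the lowest sums of choroidal endothelium (207 CPM) and pigment genes (3267 CPM). The left eye of animal 68 had 194 CPM of rod genes, within the range of the other libraries. The part of these tissues in the low ligand levels was not tested.

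Bmp6 and Bmp7, of the BMP5/6/7 subgroup, varied about as much as Bmp2. Bmp6 (chromosome 13, 38345107 to 38500302, plus strand), best known for control of iron through hepcidin in the liver, stood at 20.53, 15.2, 19.1, 19.975 and 13.0 CPM in the right eyes of animals 61, 64, 65, 66 and 68, and at 20.9, 16.6, 13.7, 16.6 and 14.4 CPM in their left eyes. Animal 61 held both of its highest libraries. Bmp7 (chromosome 2, 172868012 to 172940321, minus strand), needed for eye and kidney development, ranged from 15.2 to 23.1 CPM in right eyes (median 18.7) and from 16.9 to 23.9 CPM in left eyes (median 19.6). The Bmp6 gene overlaps Txndc5 on the opposite strand (mean 49.1 CPM), Bmp4 overlaps Gm15222 on the opposite strand (1.59 CPM) and Bmpr2 overlaps Gm38125 on the same strand (3.98 CPM). No source used here says whether counting used strand, so the values of Bmp6 and Bmp4 are uncertain to that extent. For Bmpr2, counting by strand would not separate the overlapping gene, so its value is uncertain either way.

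Bmp3 (chromosome 5, 98854415 to 98884396, plus strand), an atypical ligand known to oppose other BMPs in bone, was the most variable of the 9 members averaging 1 CPM or more. It stood at 7.57, 6.86, 3.52, 2.95 and 7.77 CPM in the right eyes of animals 61, 64, 65, 66 and 68, and at 6.54, 8.26, 6.05, 9.66 and 5.49 CPM in their left eyes. Its lowest library, the right eye of animal 66, and its highest, the left eye of the same animal, differed 3.28-fold. The 2 lowest libraries were right eyes, and otherwise the sides overlapped. The exact Poisson 95% intervals of these 2 libraries, which cover counting error only, were 2.60 to 3.33 CPM in the right and 8.93 to 10.4 CPM in the left eye.

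**Figure D2:**
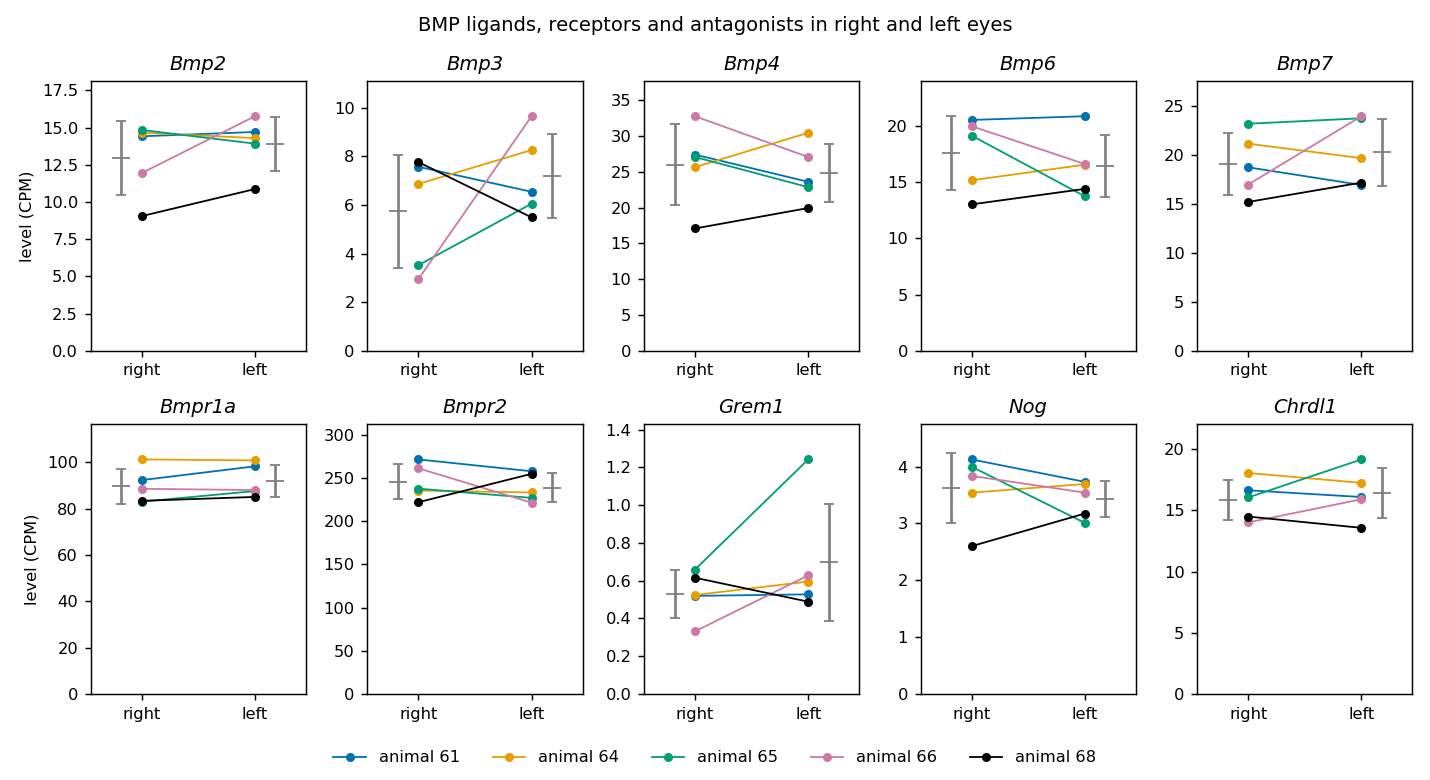
CPM of each of the 10 genes in the right and left eye of 5 animals, with a line joining the fellow eyes of an animal and grey bars for mean ± SD (n = 5) of each side. The sides overlap in every panel, and the widest fellow-eye gap relative to level is that of Bmp3 in animal 66 (2.95 CPM in the right and 9.66 CPM in the left eye).

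The receptors varied least. Bmpr2 (chromosome 1, 59763400 to 59879014, plus strand), the gene mutated in heritable pulmonary arterial hypertension in humans, stood at 271.5, 235, 238, 261 and 222 CPM in the right eyes of animals 61, 64, 65, 66 and 68, and at 258, 233, 227, 221 and 255 CPM in their left eyes. Its highest library was only 1.23 times its lowest. Bmpr1a (chromosome 14, 34410734 to 34503341, minus strand) ranged from 83.0 to 101 CPM in right eyes (median 88.5) and from 85.0 to 101 CPM in left eyes (median 88.0), a 1.22-fold range. In Bmpr1a fellow eyes were nearly equal. The SD within animals was 0.03, against 0.11 between the means of animals. It is the SD of the log2 fellow-eye differences about their mean, scaled to a single eye.

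Among the antagonists, Nog (chromosome 11, 89300638 to 89302332, minus strand) encodes noggin, a high-affinity binder of BMP2 and BMP4. Nog stood at 4.13, 3.54, 4.00, 3.84 and 2.60 CPM in the right eyes of animals 61, 64, 65, 66 and 68, and at 3.73, 3.69, 3.01, 3.54 and 3.17 CPM in their left eyes. The right eye of animal 68 lay below all other libraries, and the remaining right eyes overlapped the left eyes. Chrdl1 (chromosome X, 143285674 to 143394262, minus strand), which encodes chordin-like 1 (ventroptin) and is mutated in human X-linked megalocornea, stood at 16.7, 18.1, 16.1, 14.0 and 14.5 CPM in the right eyes and at 16.1, 17.3, 19.2, 15.9 and 13.6 CPM in the left eyes of the same animals in that order. Its range was narrow, 1.41-fold. Grem1 (chromosome 2, 113746164 to 113758646, minus strand), which encodes gremlin 1, stood at 0.519, 0.524, 0.658, 0.331 and 0.615 CPM in the right eyes and at 0.527, 0.595, 1.24, 0.628 and 0.488 CPM in the left eyes. The left eye of animal 65 was far above the rest, with 104 implied reads and an exact Poisson 95% interval of 1.01 to 1.505 CPM, which covers counting error only. The intervals of all other libraries ended at or below 0.857 CPM.

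The comparison the labels allow is that of the right with the left eye of the same animal. None of the 9 members tested differed between the sides beyond the spread of the fellow-eye differences among animals. Limma, a linear model fitted here with the animal as a block, called 0 of 9 members at an adjusted p of 0.05 (each at an adjusted p = 0.9998). In the same limma fit 0 were under an unadjusted p of 0.05. Of all 15414 genes tested 0% were called, and 2.79% were under the unadjusted threshold (430 genes, 124 higher and 306 lower in right eyes, against 235 and 261 after median-of-ratios scaling). The right and left libraries overlapped for all 10 members, while they did not overlap for 0.214% of all genes tested. By the sign of the log2 difference, 4 of the 9 members were higher and 5 lower in right eyes, with a median of -0.04, against a median of -0.01 and 46.0% higher over all genes tested. Differences are on the scale of log2(CPM + 0.230), which understates changes of low genes.

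The ligand estimates were small, and the interval excluded a change of 2-fold for 8 of the 9 members, Bmp3 being the exception. The same held for 14769 of all 15414 genes tested. These intervals cover the mean right-minus-left difference only, and with the side of the lens unknown they set no limit on a lens effect. Bmp2 averaged 13.0 ± 2.49 CPM in right and 13.9 ± 1.84 CPM in left eyes (SD, n = 5 each, here and below), a log2 difference of -0.11 ± 0.08 (SE; 95% interval -0.31 to 0.09). Bmp4 averaged 26.0 ± 5.67 CPM in right and 24.8 ± 4.06 CPM in left eyes, with a 95% interval of the log2 difference from -0.17 to 0.28. Bmp6 averaged 17.6 ± 3.30 CPM in right and 16.4 ± 2.79 CPM in left eyes (interval -0.15 to 0.33). Expressed as folds, these 3 intervals lay between 0.807 and 1.25 times the left-eye level. Bmp7 averaged 19.0 ± 3.19 CPM in right and 20.3 ± 3.41 CPM in left eyes (interval -0.32 to 0.14). Bmp3 was the least precise, at 5.73 ± 2.32 CPM in right and 7.20 ± 1.72 CPM in left eyes, a log2 difference of -0.39 ± 0.29 (SE; interval -1.06 to 0.28), lower in the right eye in 3 of 5 animals. Without animal 66, or without either of its eyes, the log2 difference of Bmp3 was -0.08.

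For the receptors the intervals were narrower. Bmpr1a averaged 89.7 ± 7.52 CPM in right and 91.9 ± 7.08 CPM in left eyes, a log2 difference of -0.04 ± 0.04 (SE; interval -0.13 to 0.06). Bmpr2 averaged 246 ± 20.3 CPM in right and 239 ± 16.5 CPM in left eyes, a log2 difference of 0.04 ± 0.07 (SE; interval -0.12 to 0.19), and was higher in the right eye in 4 of 5 animals. Among the antagonists, Nog averaged 3.62 ± 0.611 CPM in right and 3.43 ± 0.322 CPM in left eyes (interval -0.20 to 0.33), and Chrdl1 15.9 ± 1.64 CPM in right and 16.4 ± 2.04 CPM in left eyes (interval -0.21 to 0.12). Grem1, with 0.530 ± 0.126 CPM in right and 0.696 ± 0.310 CPM in left eyes, had a mean under 1 CPM and was not tested. Its log2 difference was -0.25, and -0.13 without animal 65, and the pseudocount alone moved it to -0.33 (a pseudocount of 0.0230 CPM) or -0.14 (1 CPM).

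**Figure D3:**
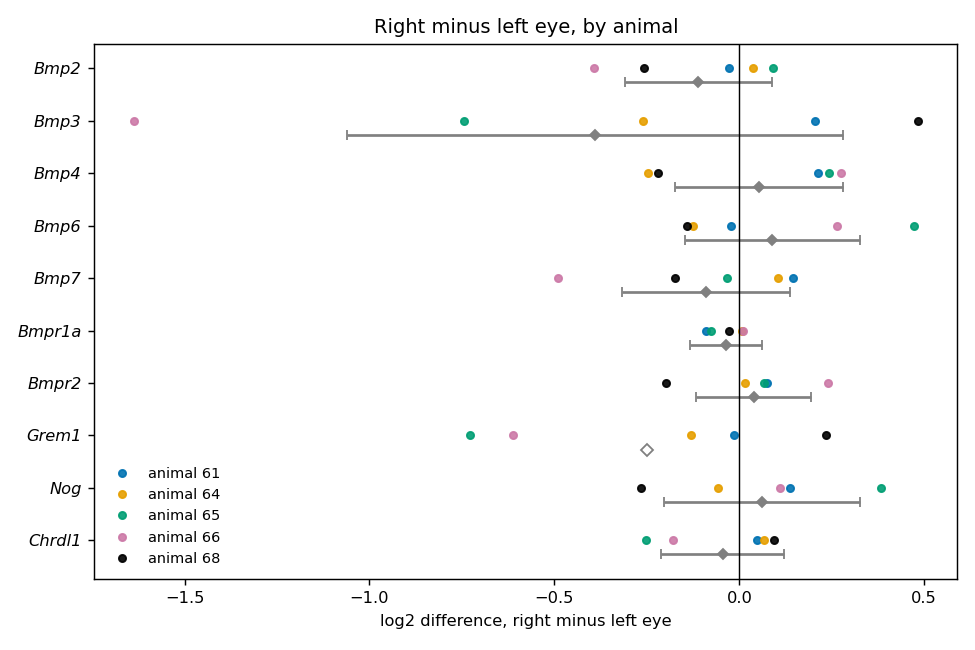
Log2 difference, right minus left eye, of each gene: coloured points are the 5 animals, grey diamonds the limma estimates with 95% intervals, and the open diamond is the untested Grem1. Every interval includes 0, and the points of each gene fall on both sides of 0, with Bmp3 spread widest.

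Because the lens may have been on either side, the size of the fellow-eye gap was also described without its sign. In animals 65, 66 and 68 the median absolute log2 difference of the 9 members was 0.24, 0.26 and 0.20, against 0.18, 0.16 and 0.15 over all genes tested. In animals 61 and 64 it was 0.09 and 0.07, against 0.11 and 0.12. The medians thus spread wider between animals for the members than over all genes. A median over 9 genes varies more than a median over 15414, so this width cannot be read as a trait of the members. In animals 61, 64, 65 and 66, 6, 5, 5 and 5 of the 9 members were higher in the right eye, against 51.4%, 40.9%, 60.8% and 44.4% of all genes tested. In animal 68 only 2 were higher and 7 lower, with a median log2 difference of -0.17, against 37.4% higher and a median of -0.06 over all genes tested. The SD of the animal means on the log2 scale had a median of 0.20 over the 9 members and 0.11 over all genes tested, and the SD within animals a median of 0.17 and 0.14.

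Levels of 3 members were set beside marker sums, both of the labelled tissue and of its neighbours. The pairs were picked after their values were seen, from the 108 that 9 members and 12 marker lists form. For Bmp3 the 2 lowest libraries, the right eyes of animals 66 and 65 with 2.95 and 3.52 CPM, had the lowest sums of 5 surface epithelium genes (Krt5, Krt12, Krt14, Krt15 and Aldh3a1), 92.6 and 93.4 CPM. The highest Bmp3 library, the left eye of animal 66 with 9.66 CPM, had the highest such sum, 738 CPM. The libraries between did not all follow this order, since the right eye of animal 68, with 7.77 CPM of Bmp3, had a sum of only 188 CPM. These markers spanned 92.6 to 503 CPM in right and 213 to 738 CPM in left eyes, and none of the 5 was at 0 in any library. For Chrdl1 the direction was the opposite against scleral fibroblast genes: the highest Chrdl1 level (19.2 CPM, left eye of animal 65) stood beside the lowest fibroblast sum (5943 CPM), and the lowest levels (13.6 CPM in the left eye of animal 68 and 14.0 CPM in the right eye of animal 66) stood beside the highest sums (8405 and 8619 CPM). For Nog the lowest levels, in the right eye of animal 68 and the left eye of animal 65 (2.60 and 3.01 CPM), stood beside the highest rod sums (1568 and 747 CPM). The same libraries had the lowest sums of choroidal endothelium (207 and 231 CPM) and pigment genes (3267 and 3647 CPM), and they were the lowest for Bmp6 too (13.0 and 13.7 CPM). Over the 10 libraries r was 0.84 for Bmp3 with surface epithelium and -0.95 for Chrdl1 with scleral fibroblast genes (log2 scale, as a description, here and in the next sentence). With the rod sum r was -0.83 for Nog, -0.84 for Bmp6 and -0.86 for Bmpr2, and r of Nog was 0.86 with endothelium and 0.85 with pigment genes. The part of these tissues in these levels was not tested.

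**Figure D4:**
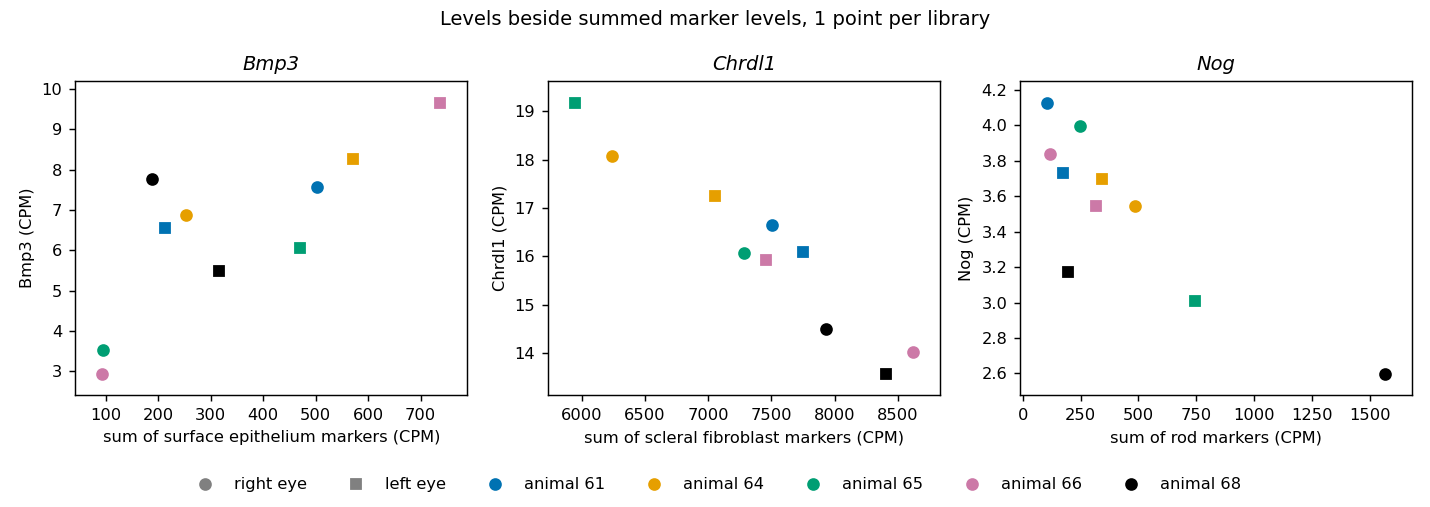
CPM of Bmp3, Chrdl1 and Nog against the summed CPM of surface epithelium, scleral fibroblast and rod markers, 1 point per library (circles, right eye; squares, left eye; colours, animals; axes do not start at 0). Bmp3 is lowest in the 2 libraries with under 100 CPM of surface epithelium markers, Chrdl1 falls along the fibroblast axis, and Nog is lowest in the library with 1568 CPM of rod markers.

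Profiles over the 10 libraries were compared on the log2 scale, as a description. The libraries came from 5 animals with 2 eyes each, so they are not 10 independent samples. Of 36 pairs of members, Bmp6 and Nog were most alike (Pearson r = 0.89, Spearman rho = 0.90, and r = 0.89 without the right eye of animal 68), followed by Bmp4 and Nog (r = 0.83, rho = 0.79, and r = 0.67 without that library). The lowest Pearson r was that of Bmp7 and Bmpr2 (r = -0.43, rho = -0.43, and r = -0.84 without it), while the lowest rho was that of Bmp3 and Bmpr2 (rho = -0.56, r = -0.40). The median r over the pairs was 0.32, and 0.19 without that library. Among 9793 genes averaging 5 CPM or more, predicted loci left out, the most alike to each member were as follows, r being the highest that such a search returns. For Bmp4 they were Slc12a7 (r = 0.98), Klf2, a transcription factor of endothelium under flow (r = 0.97), and Dhrs3, a retinaldehyde reductase (r = 0.96). Bmp2 had Wfdc2 (r = 0.97), Fzd6, a Wnt receptor (r = 0.96), and Apoe (r = 0.95), and Bmp3 had Rhpn2 (r = 0.93), Mtmr1 (r = 0.91) and Cdo1 (r = 0.90). Bmp6 was most like Zfp275, Rgl1 and Tiam2 (r = 0.98, 0.98 and 0.97), and Bmp7 most like Tapbp, Pag1 and Zfp467 (r = 0.96, 0.94 and 0.93). For the receptors these were Phf13, Manba and Daam1 with Bmpr1a (r = 0.91, 0.88 and 0.88) and Man1a, Thbs4 and Washc2 with Bmpr2 (r = 0.94 each). Nog had Ifnar2, Mical1 and Cdk2 (r = 0.97 each), and Chrdl1 had Mecom, Hdac6 and Tenm4 (r = 0.91, 0.90 and 0.87).

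The rest of the pathway was read from 5 further lists of 51 genes, of which 48 were listed and 39 averaged 1 CPM or more. None of the 39 passed the adjusted threshold in limma in either direction (0 higher and 0 lower in right eyes), 18 were higher and 21 lower in right eyes by the sign of the log2 difference, and its median was -0.01, the same as over all genes tested. Among other ligands, 2 of 7 listed genes were tested, Gdf10 at 11.7 CPM (8.11 to 15.2 CPM over the libraries) and Bmp15, known from the oocyte, at 1.98 CPM (1.405 to 2.50 CPM). All 9 other receptors and co-receptors were tested, led by those of endothelium, Eng (endoglin) at 42.3 CPM (31.7 to 49.0 CPM) and Acvrl1 (ALK1) at 34.2 CPM (29.5 to 38.4 CPM), with 3 genes higher and 6 lower in right eyes and a median of -0.10. Of the 16 other antagonists and modulators 13 were tested (5 higher and 8 lower), with Fstl1, a follistatin-like glycoprotein, at 233 CPM (208 to 274 CPM) and Twsg1, which binds BMPs with chordin, at 62.0 CPM (56.2 to 65.8 CPM).

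Per kilobase of exon Fstl1 had 47.4 CPM per kb and Twsg1 12.0 CPM per kb, both above the 3 antagonists of the set. On this scale the antagonist genes Nbl1 (21.1 CPM per kb) and Sostdc1 (14.5 CPM per kb), of the same list, lay between these genes. Inside the cell, the 8 SMAD and SMURF genes differed little between the sides, with log2 differences from -0.02 to 0.10, Smad5 at 66.4 CPM (61.6 to 71.7 CPM) and the ubiquitin ligase gene Smurf2 at 46.2 CPM (42.7 to 52.5 CPM). Of the 8 BMP-induced genes 7 were tested (4 higher and 3 lower), with Id3 at 46.5 CPM (31.2 to 61.5 CPM) and Id2 at 44.9 CPM (29.1 to 57.2 CPM), both inhibitors of basic helix-loop-helix factors. The lowest library for both was the left eye of animal 65, at 31.2 CPM of Id3 and 29.1 CPM of Id2.

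Under an unadjusted p of 0.05 in limma were 5 of the 39, a larger share than the 2.79% of all genes tested (430 of 15414). They are named here after their values were seen. Nbl1, which encodes the antagonist DAN, averaged 39.8 ± 2.93 CPM in right and 45.8 ± 6.15 CPM in left eyes, a log2 difference of -0.19 ± 0.06 (SE), lower in the right eye in 5 of 5 animals. Bambi, a decoy receptor without a kinase, had -0.17 ± 0.07 and the type II receptor gene Acvr2a -0.14 ± 0.06 (log2, SE), each lower in the right eye in 5 of 5 animals. The protease gene Tll1, related to Bmp1, had -0.28 ± 0.12, lower in 4 of 5. Acvr2a (mean 16.1 CPM) overlaps Orc4 on the opposite strand (18.9 CPM), so its value is uncertain where counting ignored strand. Sostdc1, a secreted antagonist, averaged 27.8 ± 5.34 CPM in right and 24.0 ± 2.20 CPM in left eyes, a log2 difference of 0.20 ± 0.08 (SE), higher in the right eye in 5 of 5 animals. The count of 5 became 0 without the animal block, 2 with the animal as a random effect, 1 without animal 61, 1 without animal 66 and 2 without animal 68. After adjustment over all genes in limma none of the 5 was called, each having an adjusted p of 0.9998.

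**Figure D5:**
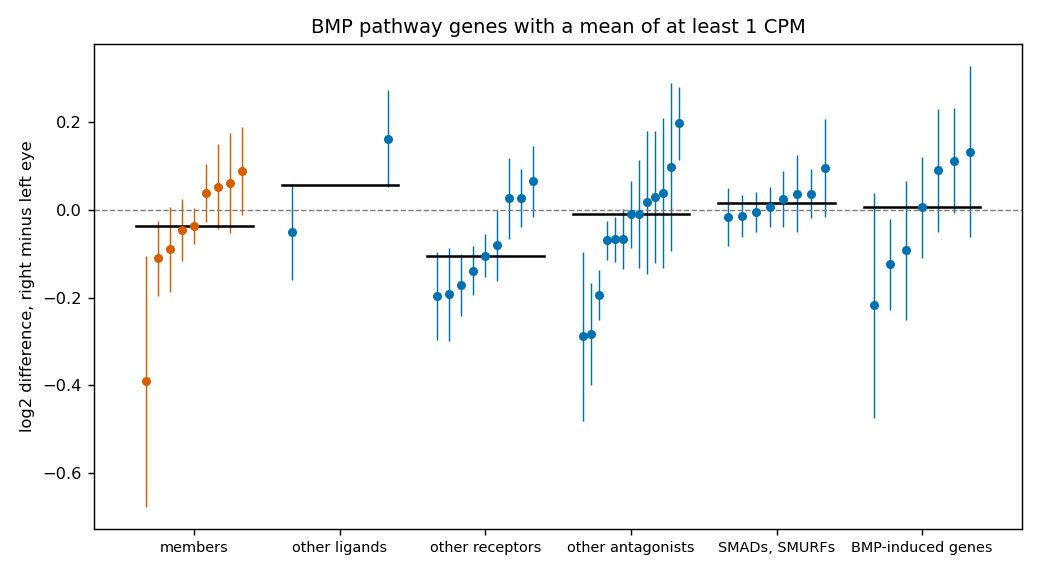
Log2 difference, right minus left eye, with SE for every BMP pathway gene averaging 1 CPM or more, by list (orange, the 9 members tested; blue, the 39 other genes; black lines, list medians). Each list has points on both sides of 0, the other receptors have the lowest median (-0.10), and the SMAD and SMURF genes span the narrowest range among lists of more than 2 genes.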

How the data were processed

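RNA sequencing of 10 libraries gave 1 deposited table of normalized values, which fit CPM of the library total with an added offset of 1e-04 (read from the values and subtracted here). Per the labels' protocols, ribosomal RNA was depleted and the kit keeps strand. STAR, Partek and GRCm38 (mm10) are named in the submitters' processing notes, and no source used here gives versions, annotation or use of strand. Gene starts equalled GENCODE M21 in 99.4% and ends (deposited stop minus 1) in 99.3% of 25737 matched genes, and coordinates are 1-based.

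Low values were whole multiples of a step in 88.9% to 89.8% of cases within 0.05, which gave implied depth but not whole reads for every gene, so no count test was run. Values were tested as log2(CPM + 0.230), the pseudocount being 0.5 CPM scaled to the median sum of the listed genes, over the 15414 genes averaging 1 CPM or more, in limma 3.58.1 (R 4.3.3) with intensity trend, animal block, Benjamini-Hochberg adjustment at 0.05 and 4 residual degrees of freedom. The script was tested on simulated data. The animal is a block because right and left titles share its number and the protocol compares fellow eyes. Fellow eyes' deviations correlated at 0.27, 0.11, 0.05, -0.19 and -0.05 in animals 61, 64, 65, 66 and 68. Alternatives covered block, pseudocount, filter, scaling, moderation and each animal or library left out.

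Members and lists were chosen with earlier results of these data known. Named were all members, the 2 highest genes of each other pathway list, and for each member the 3 genes of highest r, with predicted and overlapping loci left out. For marker lists, sums are given, with single levels of Best1, Rbpms, Snap25 and Gad1 only. These single genes were not picked by the naming rule above. Lists of melanocytes, smooth muscle, inner retina, lens, skeletal muscle, adipocytes and Schwann cells served the same marker comparison. Figures used matplotlib 3.10.9 in Python 3.11.15.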

Additional observations from a re-analysis of the deposited data

Results flagged for a closer look

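Grem1 in the left eye of animal 65 stood at 1.24 CPM, far from the other 4 left eyes, which lay between 0.488 and 0.628 CPM. The gap took 0.815 of the range of the left eyes, above the 0.71 that Dixon's test sets for 5 samples. It was the only such sample among 40 groups of 5 checked (10 members and 10 other named pathway genes on each side), and chance gives about 1 in 20. The right eye of the same animal had 0.658 CPM, the highest of the right eyes. The left eye of animal 65 also had the lowest sum of scleral fibroblast genes (5943 CPM) and, among left eyes, the highest rod sum (747 CPM), and the part of either in the Grem1 level was not tested.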

How the results depend on the processing

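No member, no other pathway gene and no gene at all passed the adjusted threshold under any of the 24 alternatives, the smallest member adjusted p in limma being 0.940. Without the replicate block, 0 members were called and the difference of Bmp3 stayed at -0.39, since the libraries are balanced. Under the 9 alternatives that kept all libraries, every member kept its sign, but only the changes of pseudocount and scaling could move it. The changes of block, filter and moderation leave the log2 difference itself as it was. The 430 genes under an unadjusted p of 0.05 became 861 with no filter and 266 with a filter of 5 CPM, as more or fewer genes were tested. When each animal or library was omitted, the log2 difference changed sign for 6 members, and its range was -0.00261 to 0.13 for Bmp4, -0.00682 to 0.15 for Bmp6, -0.149 to 0.0100 for Bmp7, -0.0110 to 0.10 for Bmpr2, -0.0196 to 0.143 for Nog and -0.0797 to 0.00676 for Chrdl1. The changes came without animal 66 or 1 of its eyes for Bmp4, Bmp7 and Bmpr2, and without animal 65 or 1 of its eyes for the others, and the cause was not tested. Bmp2 (-0.16 to -0.04), Bmp3 (-0.61 to -0.08), Bmpr1a (-0.05 to -0.02) and Grem1 (-0.37 to -0.13) kept their sign. Leaving out 1 library with the block gives the same value as leaving out its animal. With 5 animals, depth limits Grem1 most (29 to 104 implied reads).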

Other observations

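Several further BMP-type ligand genes, known from joints, limbs and the early eye, averaged under 1 CPM. Bmp5 stood at 0.821 CPM on average (0.506 to 1.34 CPM over the libraries) and Gdf5 at 0.247 CPM (0.0799 to 0.560 CPM), both above the level of 3 reads in every library. Gdf6, in which human variants are linked to small or missing eyes, was listed at 0 in 3 of 10 libraries and reached 0.394 CPM, and Gdf7 was at 0 in 1 library and reached 0.135 CPM. Gdf2, which encodes BMP9, a circulating ligand made mainly in the liver, was at 0 in 6 of 10 libraries, and its highest value was 0.0743 CPM, against 0.0318 to 0.0448 CPM for 3 reads.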
